A study of Mus musculus with 22 samples.

Results

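Mast cell genes were followed in RNA of the distal colon of 22 mice. They were the 9 rows of the count table whose gene symbol was Mcpt1, Mcpt2, Mcpt4, Cma1, Cpa3, Tpsb2, Tpsab1, Fcer1a or Hdc, out of 46078 genes in the table. All 9 symbols were found, and each had at least 1 read in the series. There were 8 C57BL/6 control libraries (4 males and 4 females, aged 14 weeks), 7 Winnie libraries (3 males and 4 females, aged 14 weeks) and 7 Winnie-Prolapse libraries (4 males and 3 females, aged 18 weeks). Winnie mice carry a missense mutation of Muc2, the main mucin of goblet cells, and develop colitis without any treatment. Per the labels the Winnie colon was inflamed and the Winnie-Prolapse colon severely inflamed. Each library carries a name of its own and was taken as 1 mouse. Prolapse and age rose together, so the effects of prolapse and of 4 further weeks cannot be told apart. The mutation is present in all cells of the mouse, and no mast cell-deficient or treated group was included.

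Mast cells are tissue leukocytes packed with granules of proteases bound to heparin, together with histamine. In mice they are described in a mucosal form, which lies in the epithelium and lamina propria and stores the chymases Mcpt1 and Mcpt2, and a connective tissue form, which lies in the submucosa, muscle and skin. The connective tissue form stores the chymase Mcpt4, the elastase-like protease Cma1, the tryptases Tpsb2 and Tpsab1 and carboxypeptidase Cpa3. Fcer1a is the chain of the high-affinity IgE receptor that binds IgE, and Hdc, histidine decarboxylase, makes histamine. Cpa3 and Fcer1a are also made by basophils, and Hdc by basophils, neutrophils and some endocrine cells.

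The 4 chymase genes lie in 1 cluster on chromosome 14 (GRCm38, GENCODE M21). Cma1 (ENSMUSG00000022225) lies at chr14:55941451-55944675 on the minus strand, Mcpt1 (ENSMUSG00000022227) at chr14:56017971-56020384 on the plus strand, Mcpt2 (ENSMUSG00000022226) at chr14:56042041-56044642 on the plus strand and Mcpt4 (ENSMUSG00000061068) at chr14:56059629-56062313 on the minus strand. The tryptases lie on chromosome 17, with Tpsab1 (ENSMUSG00000024173) at chr17:25343245-25345562 on the minus strand and Tpsb2 (ENSMUSG00000033825) at chr17:25366305-25369098 on the plus strand. Cpa3 (ENSMUSG00000001865) lies at chr3:20215620-20242181, Fcer1a (ENSMUSG00000005339) at chr1:173221284-173227214 and Hdc (ENSMUSG00000027360) at chr2:126593667-126619299, all 3 on the minus strand. Cpa3 overlaps the microRNA gene Mir7007 on its own strand, and none of the others overlaps an annotated gene.

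The chymases resemble each other in sequence, which bears on how far reads can be told apart. Over aligned coding sequence Mcpt1 was 86.7% identical to Mcpt4 and 81.2% to Mcpt2, whereas Cma1 was 61.4% identical to Mcpt1. The longest run of identical bases between any pair of the 4 was 49 bases. Of the 1009 stretches of 100 bases in the Mcpt4 transcript, 1 also occurred in another gene, Cma2, and none of those of the other 8 genes did. Tpsb2 and Tpsab1 were 68% identical. How reads that match several genes were counted was not given in the sources used here.

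Mcpt1 and Mcpt4 are shown with their starting regions because they had the most alike promoters among the 6 genes compared. They lie in the same cluster, with Mcpt2 between them, yet moved apart between prolapse libraries, as described below. Cma1 and Cpa3 are shown beside them for contrast. The sequences run from 250 bases before to 50 bases after the transcription start, from RefSeq on GRCm38.p6, which listed 6 of the 9 genes (not Mcpt2, Tpsb2 or Tpsab1). Capitals mark GATAA, the letters bound by GATA factors, or TTATC, the same letters read on the other strand.
Mcpt1 (chr14:56017714-56018013, plus strand): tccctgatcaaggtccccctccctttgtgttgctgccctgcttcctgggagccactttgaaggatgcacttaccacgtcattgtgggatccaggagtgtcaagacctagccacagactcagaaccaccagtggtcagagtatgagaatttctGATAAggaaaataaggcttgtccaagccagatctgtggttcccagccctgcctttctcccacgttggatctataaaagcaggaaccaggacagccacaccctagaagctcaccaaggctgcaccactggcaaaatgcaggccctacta
Mcpt4 (chr14:56062261-56062560, minus strand): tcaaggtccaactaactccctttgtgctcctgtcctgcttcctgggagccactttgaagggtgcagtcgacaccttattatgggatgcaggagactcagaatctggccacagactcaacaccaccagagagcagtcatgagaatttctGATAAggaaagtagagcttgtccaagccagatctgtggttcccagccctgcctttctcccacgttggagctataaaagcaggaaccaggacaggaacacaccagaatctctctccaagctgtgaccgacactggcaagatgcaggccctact
Cma1 (chr14:55944626-55944925, minus strand): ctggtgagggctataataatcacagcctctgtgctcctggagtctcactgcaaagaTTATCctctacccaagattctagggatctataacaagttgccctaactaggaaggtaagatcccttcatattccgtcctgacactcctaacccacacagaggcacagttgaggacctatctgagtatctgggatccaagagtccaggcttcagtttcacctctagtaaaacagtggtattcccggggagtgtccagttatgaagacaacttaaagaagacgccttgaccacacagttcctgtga
Cpa3 (chr3:20242132-20242431, minus strand): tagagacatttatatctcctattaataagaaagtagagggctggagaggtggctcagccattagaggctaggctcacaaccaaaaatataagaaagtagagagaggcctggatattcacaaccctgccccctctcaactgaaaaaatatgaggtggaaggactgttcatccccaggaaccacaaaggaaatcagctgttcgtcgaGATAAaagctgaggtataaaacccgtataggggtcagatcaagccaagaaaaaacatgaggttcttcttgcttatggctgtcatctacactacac
Aligned over their length, the Mcpt1 and Mcpt4 regions were 80.6% identical, and the other pairs among the 6 genes were 43.6% to 48.8% identical. GATAA on either strand was found once in each of these 4 regions and once in that of Fcer1a, and was not found in that of Hdc. Counted from the transcription start to the left end of the match, it lay at -98 in Mcpt1, -102 in Mcpt4, -194 in Cma1, -45 in Cpa3 and -92 in Fcer1a. These letters occur in 25.4% of the 32851 mouse promoter regions of the same length. The letters CANNTG, which read alike on both strands and can overlap GATAA at an end, occur in 72.3% of them and were absent from the Mcpt1 and Mcpt4 regions. A match describes the letters only and is not a binding site.

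The libraries held 24817527 to 36344372 counts, so that the floor of 3 counts used here for detection was 0.0825 to 0.121 CPM, counts scaled by the library total. Goblet cell markers summed to 2601 to 21393 CPM and colonocyte markers to 3821 to 10742 CPM over all libraries, so the labelled tissue was found in each. Of the 7 Winnie-Prolapse libraries, 1 (replicate 6) held 18.9% of its counts in milk protein genes. Markers of squamous epithelium (Krt5, Krt14, Krt13, Krt6b, Trp63, Dsg3 and Sprr3, a list chosen after the data were seen) summed to 165, 232, 805, 1550 and 2744 CPM in Winnie-Prolapse replicates 5, 6, 4, 2 and 7. The other 2 prolapse libraries held 4.17 and 2.18 CPM, Winnie replicate 2 held 42.5, and the C57BL/6 libraries held 1.91 to 2.9. Smooth muscle markers summed to 5863 to 10503 CPM in C57BL/6, 1771 to 6318 in Winnie and 1143 to 2777 in Winnie-Prolapse. In C57BL/6 replicate 7 several epithelial genes stood far below the other controls, among them Lsr at 37.1 CPM and Abcg8 at 0.254. Its colonocyte markers, however, summed to 10742 CPM, the highest of all libraries. Its goblet cell markers, at 11357 CPM, lay within the control range of 10320 to 15633 CPM. In whole tissue, fewer cells of a type and less RNA per cell cannot be told apart.

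All 9 genes were scarce in the healthy colon. Per kilobase of exon, the C57BL/6 means in TPM, a length-corrected share of the library, were 4.2 ± 1.65 for Cma1, 1.14 ± 0.539 for Mcpt1, 1.06 ± 0.615 for Tpsb2, 0.672 ± 0.324 for Mcpt2, 0.445 ± 0.323 for Mcpt4, 0.319 ± 0.277 for Cpa3 and 0.0969 ± 0.0343 for Hdc (SD, n = 8). Of these genes Cma1 had the highest mean in the control colon. Its mean ± SD did not overlap that of Mcpt1, the next in order, while those of all later neighbours overlapped. Fcer1a and Tpsab1 were at or under 3 counts in every C57BL/6 library. In Winnie the order by mean TPM was Cma1 (8.36 ± 3.62), Mcpt1 (5.34 ± 3.34), Mcpt2 (3.76 ± 2.57), Mcpt4 (0.901 ± 0.917), Hdc (0.866 ± 1.62), Tpsb2 (0.85 ± 0.502) and Cpa3 (0.54 ± 0.589) (SD, n = 7). In Winnie-Prolapse it was Mcpt2 (8.91 ± 7.37), Hdc (8.34 ± 9.74), Cma1 (6.96 ± 2.62), Mcpt1 (6.61 ± 4.44), Mcpt4 (4.78 ± 4), Tpsb2 (2.57 ± 2.08) and Cpa3 (1.71 ± 1.42) (SD, n = 7). In both orders the mean ± SD of each gene overlapped that of the next. The place of Hdc rests on single libraries, replicate 4 in Winnie-Prolapse and replicate 2 in Winnie, without which its means were 5.15 and 0.257 TPM. The plot of the values by library shows how unevenly these means were made up.

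**Figure D1:**
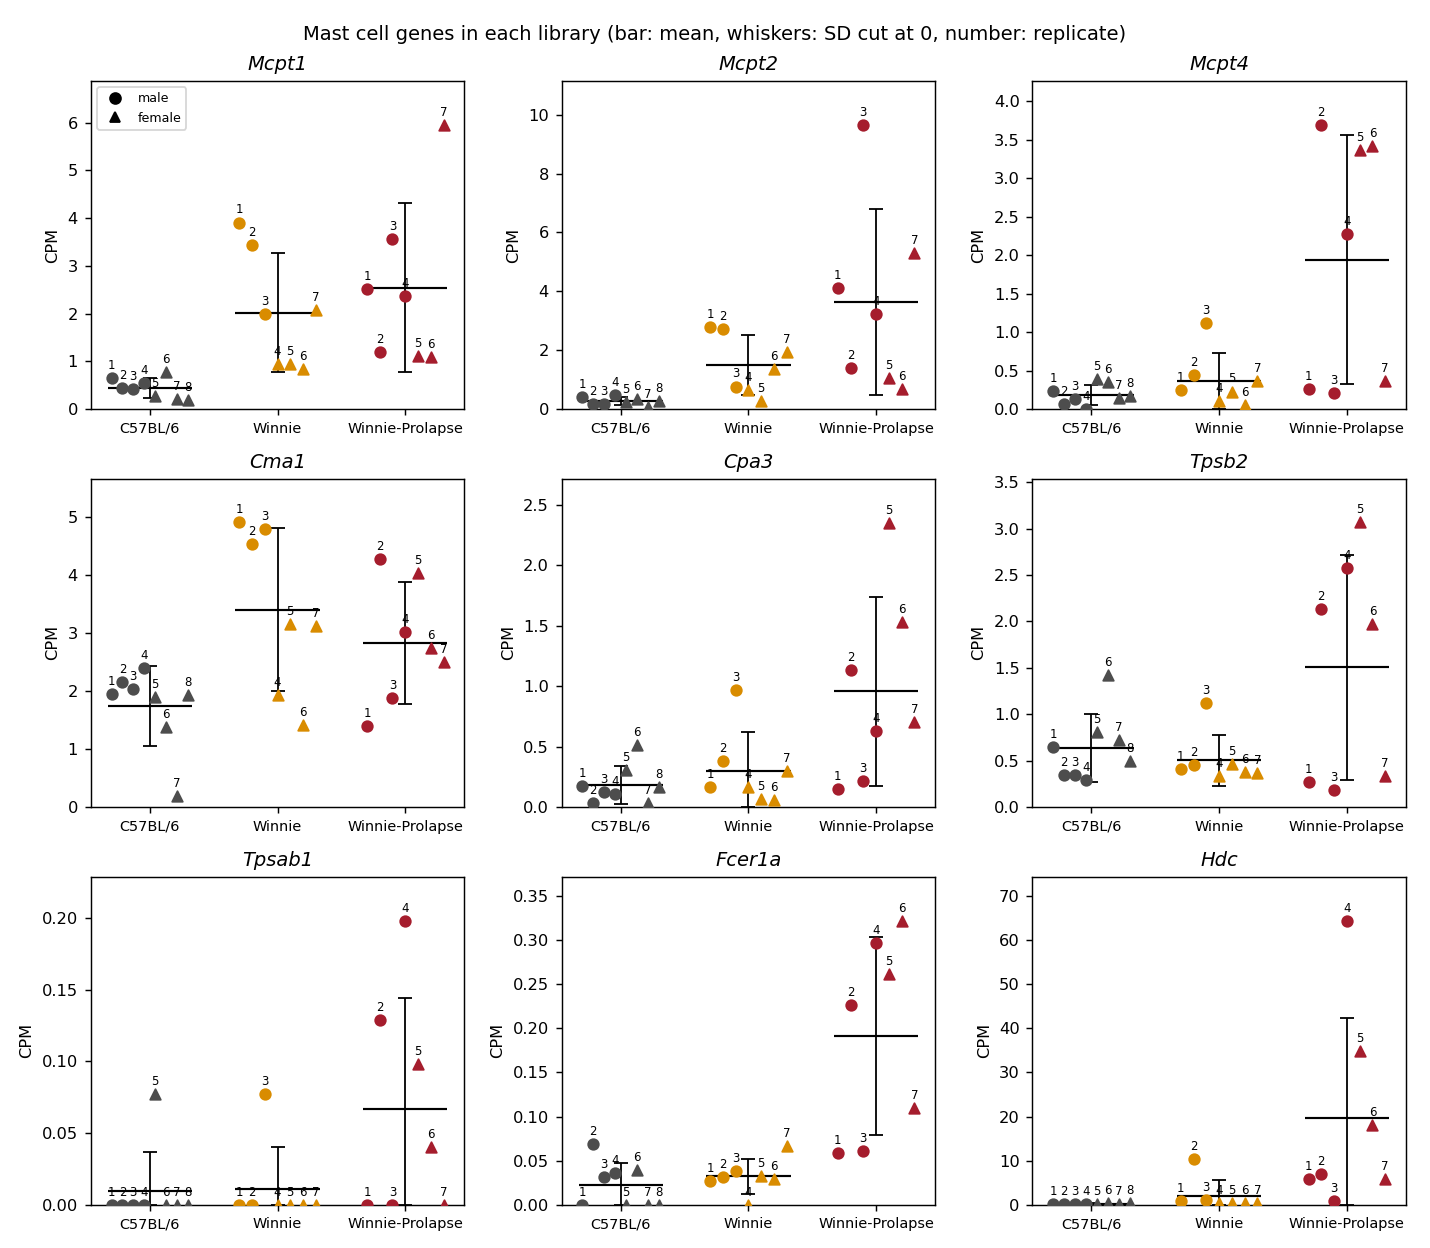
CPM of the 9 mast cell genes in each of the 22 libraries, by group, with 1 panel per gene and its own linear axis; circles are males, triangles females, numbers are replicates, the horizontal bar is the mean and the whiskers are the SD, cut at 0. Mcpt1 and Mcpt2 lay higher in both Winnie groups than in most controls, while Mcpt4, Tpsb2 and Fcer1a were highest in Winnie-Prolapse replicates 2, 4, 5 and 6.

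The first comparison asked which mast cell genes differ between inflamed Winnie colon and C57BL/6 colon of the same age. The mucosal chymases Mcpt1 and Mcpt2 were measured higher in Winnie, together with Hdc and, by less, Cma1, but none of the 9 genes met the study's limits of an adjusted p under 0.001 and a change of 1.5-fold (edgeR quasi-likelihood test, Benjamini-Hochberg adjustment over all genes). Of the 9 genes 5 had enough counts to be tested, and 0 were called, beside 0.0925% of the 17289 genes tested. DESeq2 called 2 (Mcpt1 and Mcpt2), beside 5.44% of the genes it tested, and limma-voom called 0 members and 0% of genes. At an unadjusted p under 0.05 there were 4 of 5, beside 39.9% of all genes tested. At an adjusted p under 0.05 with 1.5-fold there were also 4 of 5, all higher, beside 7.42% of all genes tested being higher by that rule. Mcpt2 and Hdc had only 2 to 13 and 4 to 11 counts per C57BL/6 library. They reached the test largely through the Winnie libraries, so these numbers of genes are a description. Without the filter on low counts all 9 genes could be fitted, and their median log2 fold change was 1.01, against -0.01 over the 29288 genes of that fit.

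Mcpt1 was 0.199 to 0.786 CPM in C57BL/6, with a median of 0.429, and 0.834 to 3.91 CPM in Winnie, with a median of 2. Every Winnie library lay above every control, and Winnie replicates 1 and 2 were the highest. Its log2 fold change was 2.26 ± 0.39 (SE) with an adjusted p of 0.00246 by edgeR. Mcpt2 was 0.0724 to 0.47 CPM in C57BL/6 (median 0.248) and 0.262 to 2.78 CPM in Winnie (median 1.38). Of the 7 Winnie libraries 6 lay above all controls, and replicate 5, at 0.262 CPM, lay among them. On the log2 scale Mcpt2 differed by 2.55 ± 0.47 (SE), with an edgeR adjusted p of 0.0034. Without Winnie replicate 5, both met the study's limits, with edgeR adjusted p of 0.000598 for Mcpt1 and 0.00034 for Mcpt2.

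Of the connective tissue genes, Cma1 was 0.181 to 2.39 CPM in C57BL/6 (median 1.93) and 1.41 to 4.9 CPM in Winnie (median 3.15). The 3 highest Winnie libraries were the 3 males, at 4.52, 4.78 and 4.9 CPM, and 5 of the 7 libraries lay above all controls. Cma1 differed by 1.03 ± 0.36 (SE) on the log2 scale, with an edgeR adjusted p of 0.0457. It was 0.86 ± 0.24, adjusted p 0.0175, without C57BL/6 replicate 7, whose 5 Cma1 counts were far below the 35 to 66 of the other controls. The place of Cma1 under 0.05 was not stable, since its adjusted p was 0.05 or more when 11 of the 15 libraries were left out singly (0.0175 to 0.103 over all 15) and 0.0573 without the filter. Tpsb2 was 0.289 to 1.42 CPM in C57BL/6 and 0.338 to 1.12 CPM in Winnie, and the groups overlapped throughout. Its log2 fold change was -0.28 ± 0.35 (SE), with an edgeR adjusted p of 0.579. Mcpt4 and Cpa3 were too low to be tested here. Mcpt4 had 0 to 10 counts per C57BL/6 library and 2 to 29 per Winnie library, and Cpa3 had 1 to 13 and 2 to 25. Fitted without the filter on low counts, neither passed, with log2 fold changes of 1.01 ± 0.58 (SE, edgeR adjusted p 0.263) for Mcpt4 and 0.75 ± 0.59 (adjusted p 0.418) for Cpa3.

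Hdc was 0.154 to 0.364 CPM in C57BL/6, with a median of 0.205, and 0.374 to 10.4 CPM in Winnie, with a median of 0.439. The groups did not overlap, but 6 Winnie libraries lay between 0.374 and 1.16 CPM and replicate 2 alone reached 10.4. Its log2 fold change was 3.10 ± 0.74 (SE) with an edgeR adjusted p of 0.00968, and without Winnie replicate 2 it was 1.45 ± 0.31 with an adjusted p of 0.0106. In that library the neutrophil marker S100a8 was also the highest of the group, at 36.2 CPM against 0.0984 to 9.27 CPM in the other Winnie libraries. Mcpt1 and Hdc were the only members whose groups did not overlap, beside 0.463% of all genes tested lying wholly above the controls.

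**Figure D2:**
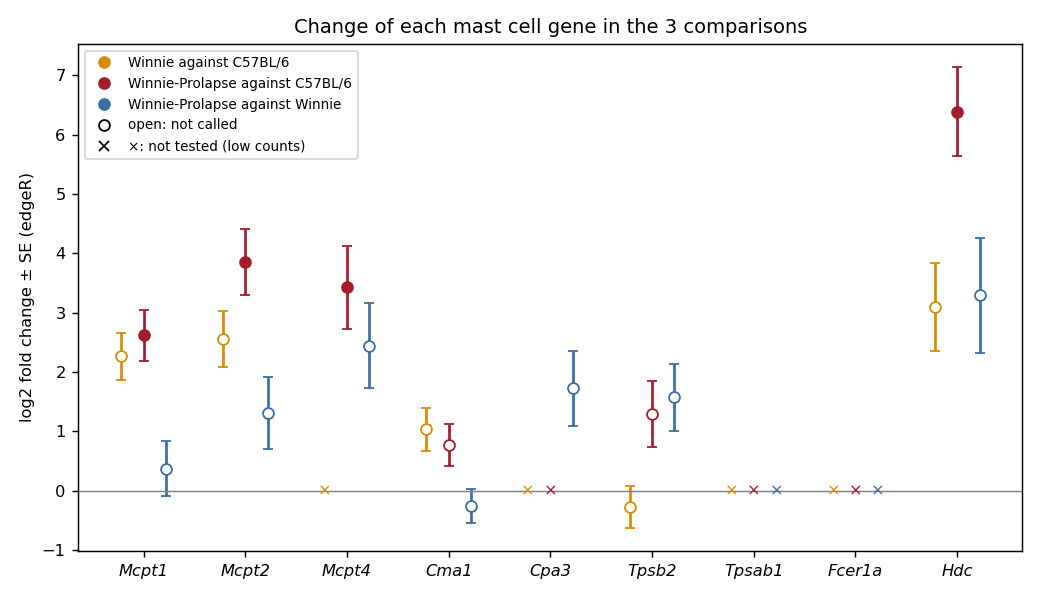
log2 fold change ± SE of each mast cell gene by edgeR in the 3 comparisons; filled points met an adjusted p under 0.001 and 1.5-fold, open points did not, and a cross at 0 marks a gene with too few counts to be tested. All 4 filled points, for Mcpt1, Mcpt2, Mcpt4 and Hdc, belong to Winnie-Prolapse against C57BL/6.

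The second comparison set the prolapsed colon at 18 weeks against C57BL/6 colon at 14 weeks. Here Mcpt1, Mcpt2, Mcpt4 and Hdc rose, which was 4 of the 6 members tested, beside 18.3% of the 17397 genes tested being called and 9.84% being called higher. In C57BL/6, Mcpt2, Mcpt4 and Hdc were at most 0.47, 0.386 and 0.364 CPM. They reached the test largely through the prolapse libraries, so the count is a description. Hdc rose most, by 6.39 on the log2 scale. Cma1 and Tpsb2 were measured higher but did not pass. Without the filter, the median log2 fold change of all 9 genes was 2.64, against 0.01 over the 29816 genes of that fit. DESeq2 called 6 members, beside 20.7% of the genes it tested, limma-voom called 2, beside 17.6%, and edgeR on genes with at least 10 counts in every library called 0, since no member passed that filter.

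The mucosal chymases were high in every prolapse library. Mcpt1 was 2.52, 1.2, 3.57, 2.38, 1.11, 1.09 and 5.96 CPM in Winnie-Prolapse replicates 1 to 7, against at most 0.786 CPM in C57BL/6. Its log2 fold change was 2.62 ± 0.43 (SE), with an edgeR adjusted p of 0.000132. Mcpt2 was 4.11, 1.39, 9.65, 3.24, 1.05, 0.685 and 5.3 CPM in the same libraries, against at most 0.47 CPM in C57BL/6. Its log2 fold change was 3.85 ± 0.56 (SE), with an edgeR adjusted p of 5.16e-05. Both genes were highest in replicates 3 and 7, and all 7 libraries lay above all 8 controls. The CPM of replicate 6 were taken over a total of which 18.9% were milk protein counts. With Hdc, 3 members did not overlap between these groups, beside 6.5% of all genes tested lying wholly above the controls.

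The connective tissue chymase Mcpt4 rose on average but not in every library. It was 0.266, 3.69, 0.212, 2.28, 3.37, 3.42 and 0.368 CPM in Winnie-Prolapse replicates 1 to 7, while C57BL/6 ranged from 0 to 0.386 CPM. Replicates 2, 4, 5 and 6 lay far above every control, and replicates 1, 3 and 7 lay within the control range. For Mcpt4 the log2 fold change was 3.43 ± 0.70 (SE), with an edgeR adjusted p of 0.000799. This was close to the limit of 0.001. Mcpt4 lost its call when any of C57BL/6 replicates 1, 2, 3, 4, 7 and 8 or Winnie-Prolapse replicates 2, 4, 5 and 6 was left out, with log2 fold changes from 3.16 to 3.51 and adjusted p from 0.00143 to 0.0022. It did not reach the count filter without C57BL/6 replicate 5 or 6. It was also lost in limma-voom, with an adjusted p of 0.00855.

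Tpsb2, the tryptase, followed Mcpt4 from library to library. It was 0.266, 2.13, 0.182, 2.58, 3.07, 1.97 and 0.331 CPM in Winnie-Prolapse replicates 1 to 7, against 0.289 to 1.42 CPM in C57BL/6. The libraries with high Mcpt4 lay above all controls, replicates 1 and 3 lay below all controls, and replicate 7 lay among the lowest controls. For Tpsb2 it was 1.29 on the log2 scale with an edgeR adjusted p of 0.063. Cma1 was 1.39, 4.27, 1.88, 3.01, 4.02, 2.74 and 2.5 CPM in the same libraries, with 5 of 7 above all controls. Its log2 fold change was 0.77, with an edgeR adjusted p of 0.0722.

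Carboxypeptidase Cpa3 had too few counts in C57BL/6 (1 to 13 per library) to enter the test. In Winnie-Prolapse it was 0.148, 1.13, 0.212, 0.628, 2.35, 1.53 and 0.699 CPM in replicates 1 to 7, and 5 of 7 lay above the highest control of 0.511 CPM. Fitted without the filter, its log2 fold change was 2.46 ± 0.60 (SE), with an edgeR adjusted p of 0.00426. Fcer1a had 2, 7, 2, 9, 8, 8 and 3 counts in the prolapse libraries, 39 in all, against 5 counts in all 8 controls and 7 in all 7 Winnie libraries. Replicates 2, 4, 5 and 6 were again the highest. At these counts its fold depends on the prior count, and without the filter the edgeR adjusted p was 0.00125 against C57BL/6 and 0.0206 against Winnie. Tpsab1 had 4, 6, 3 and 1 counts in Winnie-Prolapse replicates 2, 4, 5 and 6 and 0 in the other 3. It had 2 counts in 1 library of each other group and 0 in the rest. At such low counts no difference from C57BL/6 was detected (edgeR adjusted p 0.058 without the filter).

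Hdc was 5.83, 7.05, 0.908, 64.4, 34.9, 18.1 and 5.89 CPM in Winnie-Prolapse replicates 1 to 7, and all lay above the highest control of 0.364 CPM. Replicate 4 was highest and replicate 3 lowest. Hdc rose by 6.39 ± 0.75 (SE) on the log2 scale with an edgeR adjusted p of 8.2e-06, and was 5.43 ± 1.16 with an adjusted p of 0.0012 by limma-voom, which did not call it. With each of the 15 libraries left out in turn, edgeR gave 5.78 to 6.61 and called Hdc each time. Leaving out the library with milk protein counts, Winnie-Prolapse replicate 6, gave log2 fold changes of 2.75 for Mcpt1, 4.04 for Mcpt2 and 6.37 for Hdc, all still called, and 3.16 for Mcpt4, which was not (edgeR adjusted p 0.00187).

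The third comparison set prolapsed against non-prolapsed Winnie colon. None of the 7 members tested was called by edgeR, nor was any of the 17041 genes tested (0%), and DESeq2 and limma-voom also called 0 members, beside 2.89% and 0% of the genes they tested. At an unadjusted p under 0.05 there were 5 of 7 members, beside 27.8% of all genes tested. Mcpt4 and Cpa3 reached this test largely through the prolapse libraries, so such numbers of genes are a description. At an adjusted p under 0.05 with 1.5-fold there were 2, Mcpt4 and Hdc, beside 4.27% of genes higher by that rule. They differed by 2.44 ± 0.72 on the log2 scale (SE, edgeR adjusted p 0.0495) for Mcpt4 and 3.29 ± 0.97 (adjusted p 0.0479) for Hdc. Mcpt4 was 0.0575 to 1.12 CPM in Winnie, and 4 of the 7 prolapse libraries lay above that range. Hdc was 4.95 ± 0.85 without Winnie replicate 2 (adjusted p 0.00503), the Winnie library with the high value. Its log2 fold change was 2.67 to 4.95 over all 14 libraries left out singly. The adjusted p of Mcpt4 and of Hdc lay close to 0.05. When left out, 10 of the 14 single libraries took Mcpt4 to 0.05 or more (adjusted p 0.0246 to 0.0994 over all 14), as did 11 of 14 for Hdc (0.00503 to 0.104). Without the filter the adjusted p was 0.0587 for Mcpt4 and 0.0539 for Hdc. The log2 fold change of Cpa3 was 1.72 ± 0.64 (adjusted p 0.101) and that of Tpsb2 1.57 (adjusted p 0.0902). It was 0.37 (adjusted p 0.636) for Mcpt1, 1.31 (adjusted p 0.178) for Mcpt2 and -0.26 (adjusted p 0.588) for Cma1. Whether these changes differed between members was not tested. Both comparisons with C57BL/6 shared the same 8 controls.

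Mcpt1 and Mcpt2 varied together across libraries, as did Mcpt4 and Tpsb2. In Winnie-Prolapse Mcpt1 and Mcpt2 were highest in replicates 3 and 7, in which Mcpt4 and Tpsb2 were low. After the group means were subtracted, log2 CPM of Mcpt1 and Mcpt2 correlated with r = 0.791 over 22 libraries, and Mcpt4 with Tpsb2 with r = 0.911, Mcpt4 with Cpa3 with 0.821 and Tpsb2 with Tpsab1 with 0.793. Mcpt2 gave -0.548 with Tpsb2 and -0.471 with Mcpt4. Cma1 gave 0.251 with Mcpt1, 0.111 with Mcpt2, 0.386 with Mcpt4 and 0.23 with Tpsb2. In Winnie-Prolapse, however, Cma1 was also higher in replicates 2, 4, 5 and 6 (2.74 to 4.27 CPM) than in replicates 1, 3 and 7 (1.39 to 2.5 CPM). These are descriptions, in which the values of a library share its depth and scaling, and those with Mcpt4 rest largely on the gap between 4 and 3 prolapse libraries. For that reason no r is given for Mcpt4 or Tpsb2 within Winnie-Prolapse.

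There were 18 relations computed within groups. Leaving out those of Mcpt4 and Tpsb2 in Winnie-Prolapse, r was highest for Mcpt1 with Mcpt2 in Winnie-Prolapse. It was 0.892 (two-sided exact permutation p = 0.0113, adjusted 0.0964, n = 7) and Spearman's rho was 0.964 (exact p = 0.00278, adjusted 0.05), and r was 0.984 without the 2 libraries farthest from the median of Mcpt1. In Winnie r was 0.748 (exact permutation p = 0.0609, adjusted 0.13, n = 7) and rho 0.75 (exact p = 0.0663, adjusted 0.149), and r was 0.942 without the 2 farthest. In C57BL/6 r was 0.652 (exact permutation p = 0.0784, adjusted 0.13, n = 8) and rho 0.571 (exact p = 0.151, adjusted 0.209), and r was 0.634 without the 2 farthest. Between Mcpt4 and Cma1 r was 0.833 in Winnie (exact permutation p = 0.0183, adjusted 0.0964, n = 7) and rho 0.714 (exact p = 0.0881, adjusted 0.159), and r was 0.742 without the 2 farthest. For the same pair in C57BL/6 r was -0.142 (exact permutation p = 0.654, adjusted 0.693, n = 8) and rho -0.714 (exact p = 0.0576, adjusted 0.148), and r was -0.03 without the 2 farthest. Between Mcpt1 and Mcpt4 r in Winnie was 0.589 (exact permutation p = 0.165, adjusted 0.229, n = 7) and rho 0.679 (exact p = 0.11, adjusted 0.164), and r was 0.0863 without the 2 farthest. In C57BL/6 r was -0.04 (exact permutation p = 0.923, adjusted 0.923, n = 8) and rho 0.0238 (exact p = 0.977, adjusted 0.977), and r was -0.04 without the 2 farthest. Between Tpsb2 and Cpa3 r was 0.74 in Winnie (exact permutation p = 0.0716, adjusted 0.13, n = 7) and rho 0.286 (exact p = 0.556, adjusted 0.625). This r was 0.0168 without the 2 farthest, so the relation rests on those libraries. For that pair in C57BL/6 r was 0.68 (exact permutation p = 0.0628, adjusted 0.13, n = 8) and rho 0.714 (exact p = 0.0576, adjusted 0.148), and r was 0.417 without the 2 farthest. Hdc with Cpa3 gave r from 0.381 to 0.621 in the 3 groups, with adjusted p from 0.194 to 0.415. No adjusted p of r among the 18 was under 0.05.

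The balance of mucosal to connective tissue chymase reads can be followed within a library, where depth cancels. Cma1 made up most of the connective tissue reads outside the prolapsed colon, with a median of 8.14 Cma1 counts per Mcpt4 count in 7 C57BL/6 libraries and 13.7 in Winnie, against 1.32 in Winnie-Prolapse. The ratio of Mcpt1 plus Mcpt2 counts to Mcpt4 plus Cma1 counts, not corrected for length, was 0.22 to 0.889 in C57BL/6 with a median of 0.352. It was 0.359 to 1.51 in Winnie with a median of 1.15. In Winnie-Prolapse it was 4, 0.325, 6.33, 1.06, 0.292, 0.288 and 3.92 in replicates 1 to 7, with a median of 1.06. Replicates 2, 5 and 6 thus lay within the range of the controls, and replicates 1, 3 and 7 lay above every other library. The ratio of Mcpt1 to Mcpt4 counts was 9.44, 16.9 and 16.2 in replicates 1, 3 and 7 and 0.318 to 1.04 in the other 4. It was 1.79 to 15.8 in Winnie, so that by this ratio replicate 1 lay within the Winnie range. The plot of the protease pairs shows the libraries of both kinds.

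**Figure D3:**
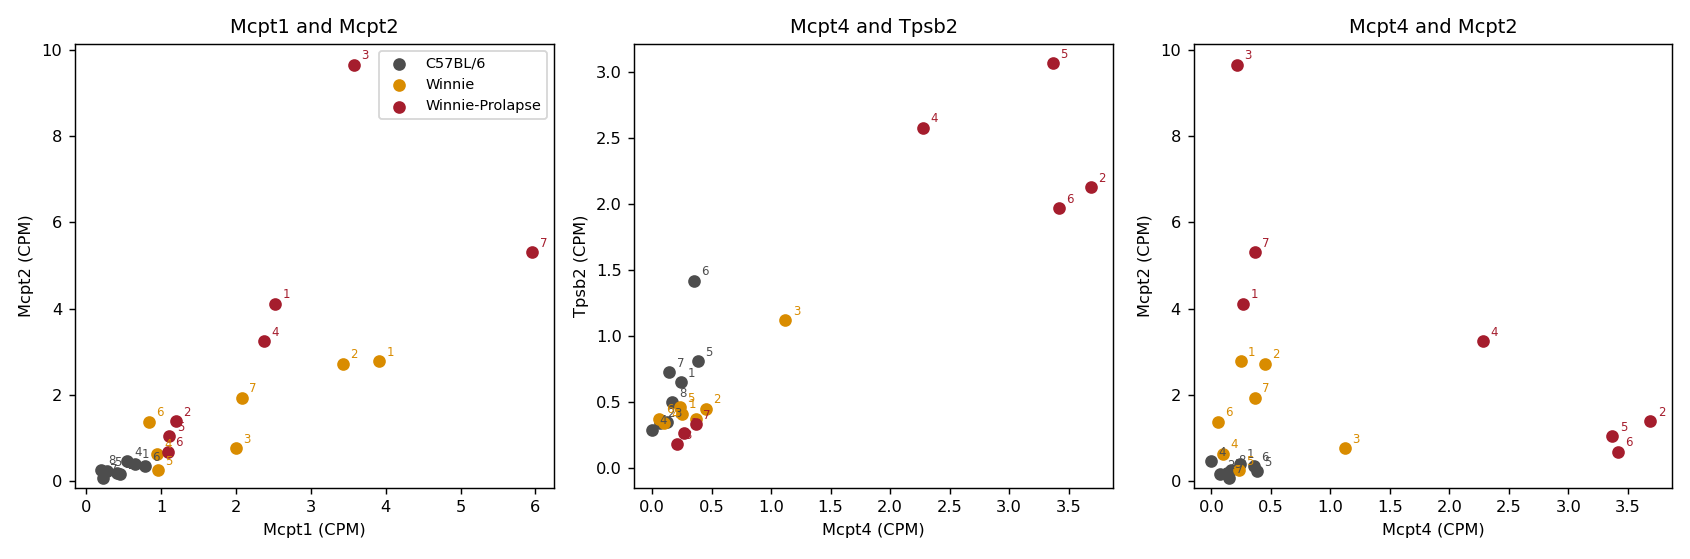
CPM of 3 pairs of proteases in 22 libraries, on linear axes, with colour for the group and numbers for the replicate; left, Mcpt1 and Mcpt2, middle, Mcpt4 and Tpsb2, right, Mcpt4 and Mcpt2. Mcpt4 and Tpsb2 were high in the same 4 prolapse libraries, and the 3 libraries with most Mcpt2 had at most 0.368 CPM of Mcpt4.

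The genes most like each tested member were taken from 15487 genes with a mean of at least 1 CPM, by the group-centred r over 22 libraries. Mcpt2 was most like Tnfsf13os (r = 0.844), Smpdl3a (0.842) and Apobec1 (0.83), and Mcpt1 was most like Tnfsf13os (0.785), Smpdl3a (0.753) and Ces2f (0.713), so that the first 2 were shared. Tpsb2 was most like Cyp2b19 (0.844), Hrnr (0.841) and Klk7 (0.838), of which hornerin and kallikrein 7 are products of the epidermis. Mcpt4 was most like Ctps (0.776), Lor (0.774) and Rora (0.764), of which loricrin is a protein of the epidermal cornified layer. Klk7 was at most 0.0361 CPM in C57BL/6 and 0 to 29.4 CPM in Winnie-Prolapse. Cpa3 was most like Serpinf1 (0.732), Srebf1 (0.732) and Larp6 (0.729). Hdc was most like Stfa2l1 (0.962), Epb4.1l2 (0.944) and Cxcr2 (0.938), the last a chemokine receptor of neutrophils. Cma1 was most like Abcg8 (0.933), Mettl7a3 (0.923) and Lsr (0.922), and these fell to 0.826, 0.786 and 0.781 without C57BL/6 replicate 7. Tpsab1 and Fcer1a, tested in no comparison, were left out. For the other 6 members, r lay between 0.661 and 0.942 without the library farthest from its group mean.

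Markers of other cells moved with some of these genes. Squamous markers were high in the 4 prolapse libraries with high Mcpt4 and Tpsb2, and also in replicate 7, which held the highest squamous sum, 2744 CPM, with 0.368 CPM of Mcpt4 and 0.331 CPM of Tpsb2. Replicates 1 and 3, with low Mcpt4, held 4.17 and 2.18 CPM of squamous markers. Goblet cell markers correlated with Mcpt4 at -0.818 and with Tpsb2 at -0.692, group-centred, over 22 libraries. The squamous sum gave 0.457 with Mcpt4, 0.465 with Tpsb2 and 0.59 with Hdc on the same scale. The part of skin or anal epithelium in the values of Mcpt4 and Tpsb2 was not tested. Winnie replicate 3, which had the highest Mcpt4 (1.12 CPM), Cpa3 (0.964 CPM) and Tpsb2 (1.12 CPM) of its group, held 1.81 CPM of squamous markers, the lowest sum of the Winnie group.

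Hdc rose beside neutrophil markers. The sum of 8 of the 9 neutrophil markers was 0.471 to 3.39 CPM in C57BL/6, 1.48 to 125 CPM in Winnie and 67.1 to 1422 CPM in Winnie-Prolapse. Ly6g was left out of this sum after the data were seen, because it was high in controls without the other markers. The list as a whole, with Ly6g, summed to 4.27 to 359 CPM in C57BL/6, 316 to 651 in Winnie and 530 to 1934 in Winnie-Prolapse. Of 6 neutrophil markers tested in Winnie-Prolapse against C57BL/6, 5 rose, beside 9.84% of all genes. Several of these, such as S100a9, were near 0 in C57BL/6 and reached the test through the prolapse libraries, so the count is a description. S100a8, S100a9 and Csf3r had log2 fold changes of 9.25, 9.78 and 5.45 (edgeR adjusted p 2.15e-07, 1.21e-06 and 4.55e-06). In Winnie-Prolapse replicate 4, with 64.4 CPM of Hdc, the sum of 8 was 1422 CPM, and in replicate 3, with 0.908 CPM of Hdc, it was 82.1 CPM. Group-centred over 22 libraries, Hdc gave r = 0.789 with this sum but 0.112 with the list as a whole. With the sum of 8 the other members gave 0.226 (Mcpt2) to 0.594 (Cpa3), and with the whole list 0.00722 (Tpsb2) to 0.743 (Cma1). Hdc with S100a8 gave r = 0.75 in Winnie (exact permutation p = 0.0246, adjusted 0.0964, n = 7) with rho 0.679 (exact p = 0.11, adjusted 0.164), and r = 0.67 without the 2 farthest libraries. In Winnie-Prolapse r was 0.694 (exact permutation p = 0.0796, adjusted 0.13, n = 7) with rho 0.786 (exact p = 0.048, adjusted 0.148), and r was 0.746 without the 2 farthest. In C57BL/6, where both were low, r was -0.332 (exact permutation p = 0.422, adjusted 0.475, n = 8) with rho -0.286 (exact p = 0.501, adjusted 0.601), and r was -0.778 without the 2 farthest. The part of neutrophils in the Hdc values was not tested.

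**Figure D4:**
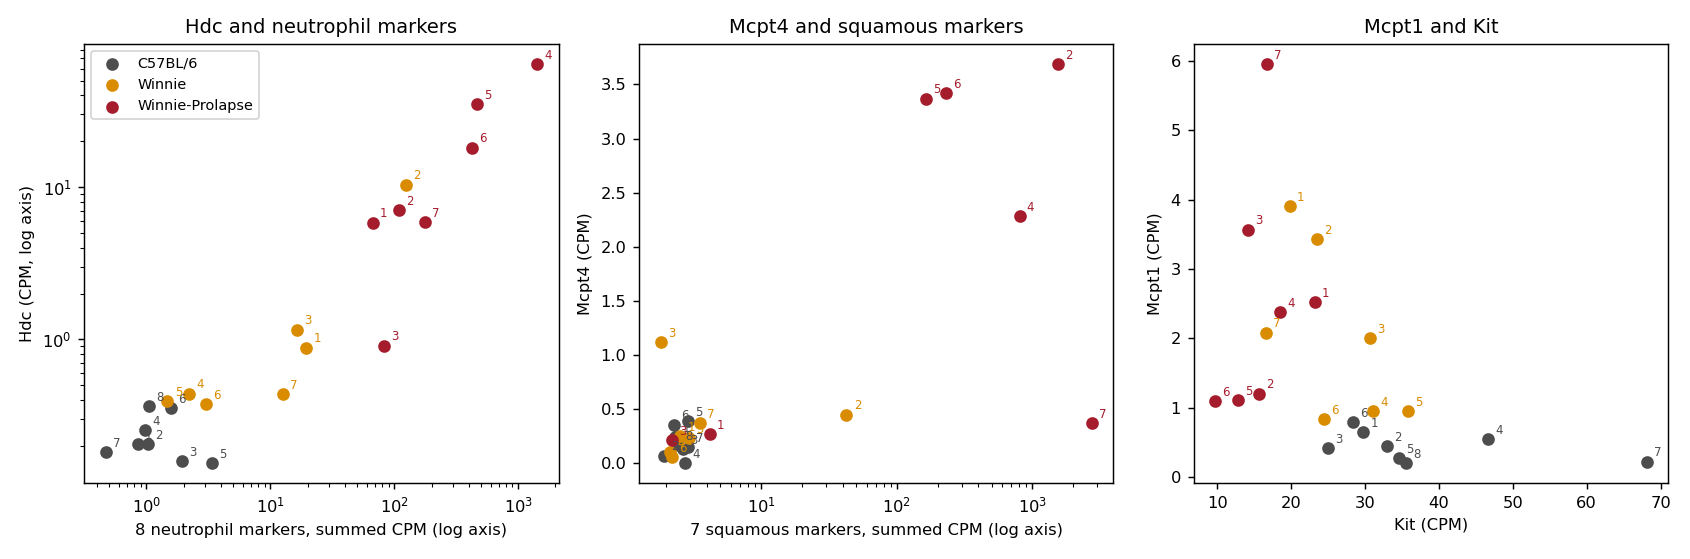
Mast cell genes against markers in 22 libraries, with colour for the group and numbers for the replicate; left, Hdc against the sum of 8 neutrophil markers (both log axes), middle, Mcpt4 against the sum of 7 squamous markers (log axis), right, Mcpt1 against Kit (linear axes), all in CPM. Hdc was highest in the library with most neutrophil marker reads (64.4 and 1422 CPM), and Winnie-Prolapse replicate 7 had the most squamous reads with little Mcpt4.

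Receptors that mark mast cells did not move as 1 group. Of 12 receptor and surface genes, 8 were tested in Winnie-Prolapse against C57BL/6, where 3 rose and 1 fell, beside 18.3% of all genes called and 9.84% higher. Il1rl1, the IL-33 receptor, rose by 5.84 ± 0.48 on the log2 scale (SE, edgeR adjusted p 3.37e-07), from 0.54 to 3.01 CPM in C57BL/6 to 22.3 to 178 CPM in Winnie-Prolapse. Fcer1g, the signalling chain shared by Fc receptors of many leukocytes, rose by 2.15 ± 0.23 (adjusted p 4.16e-06). Il3ra, the IL-3 receptor alpha chain, rose as well (edgeR adjusted p 5.92e-06), with 2.08 to 4.34 CPM in C57BL/6 and 6.51 to 11.2 CPM in Winnie-Prolapse. Kit, the stem cell factor receptor of mast cells, is also the marker of the pacemaker cells of gut muscle. It decreased by 1.18 on the log2 scale (SE 0.21, log2 fold change -1.18, edgeR adjusted p 0.000256), from 25 to 68.1 CPM in C57BL/6 to 9.75 to 23.2 CPM in Winnie-Prolapse. All 5 smooth muscle markers fell in the same comparison. Whether Kit reads came from mast cells or muscle was not tested. Ms4a2, the beta chain of the IgE receptor, had at most 8 counts in any library and Mcpt8, a protease of basophils, at most 3, and neither could be tested.

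In Winnie against C57BL/6 none of the 8 receptor genes tested was called by edgeR, beside 0.0925% of all genes, and 5 passed an adjusted p under 0.05 with 1.5-fold, all higher, beside 7.42% of all genes. Il1rl1 had a log2 fold change of 3.20 ± 0.68 (edgeR adjusted p 0.00575) and Kit of -0.46 ± 0.20 (adjusted p 0.101). In Winnie-Prolapse against Winnie Il1rl1 was 2.65 ± 0.70 (adjusted p 0.0341) and Kit -0.72 ± 0.18 (adjusted p 0.028), and neither was called.

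Of 7 other mast cell and basophil proteases looked up, 6 were in the table and 5 of these had too few counts to be tested. The other, Tpsg1, the transmembrane tryptase, was 15.9 to 29 CPM in C57BL/6 and 5.62 to 23.4 CPM in Winnie-Prolapse, with a log2 fold change of -0.71 ± 0.26 in Winnie-Prolapse against C57BL/6 (edgeR adjusted p 0.03, not called). Of 6 transcription factors, 5 were tested in that comparison and 1 was called, a share close to the 18.3% of all genes. It was Runx1, which rose by 1.08 ± 0.19 (adjusted p 0.000267). Of 6 granule and heparin genes tested there, Srgn, the proteoglycan core of leukocyte granules, rose by 2.93 ± 0.35 (adjusted p 8.27e-06). Slc18a2, which loads amines into granules, fell, with a log2 fold change of -2.37 ± 0.38 (adjusted p 0.000118). No other gene of these lists was called in Winnie-Prolapse against C57BL/6, and none in the other 2 group comparisons.

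Of the histamine breakdown and receptor genes, 4 were tested in the same comparison, where 1 rose and 2 fell, beside 18.3% of all genes called. Hrh2, a histamine receptor, rose by 3.03 ± 0.40 (edgeR adjusted p 2.39e-05). It was at most 0.309 CPM in C57BL/6 and reached the test largely through the prolapse libraries. Aoc1, the diamine oxidase that degrades histamine, had a log2 fold change of -1.67 ± 0.30 (adjusted p 0.000255), and Hrh1, another histamine receptor, of -1.10 ± 0.17 (adjusted p 0.000107). No call was made among the 5 lipid mediator enzymes tested. Among 5 growth and activation cytokines tested, Tgfb1 rose by 1.46 ± 0.24 (adjusted p 0.000145) and Il18 fell, with a log2 fold change of -1.46 ± 0.24 (adjusted p 0.00014). No read was counted for Il9 in any library.

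Markers of basophils and eosinophils were also read. Of 5 basophil markers 3 were tested in Winnie-Prolapse against C57BL/6. Il3ra, counted above, was the 1 that rose, beside 9.84% of all genes called higher. The sum of the 5 basophil markers was 2.93 to 6.56 CPM in C57BL/6, 5.74 to 13.3 in Winnie and 7.81 to 16.2 in Winnie-Prolapse. Most of it was Il3ra, with means of 3.23, 6.14 and 8.69 CPM in these groups, and Gata2, with 1.4, 1.68 and 2.24. Cd200r3 had means of 0.438, 0.345 and 0.4 CPM. The basophil protease Mcpt8 was at or near 0, and Prss34 was at most 0.0771 CPM. Group-centred, this sum gave r = 0.716 with Hdc and 0.655 with Cma1 over 22 libraries. Of 3 eosinophil markers tested in the same comparison 1 was called, beside 18.3% of all genes called and 9.84% higher. It was Prg2, which rose by 2.68 ± 0.29 (edgeR adjusted p 4.43e-06). Siglecf and Alox15 were not called. Siglecf had a mean of 1.13 CPM in C57BL/6 and 0.979 in Winnie-Prolapse, and Alox15 of 2.7 and 3.2. Of 5 enteroendocrine markers tested there 1 was called, a share close to the 18.3% of all genes. It was Chga, which fell, with a log2 fold change of -1.06 ± 0.17 (edgeR adjusted p 0.000107). The median log2 fold change of the 5 was -0.36. The parts of these cells in the values of Cpa3, Fcer1a and Hdc were not tested.

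Females and males were compared in 1 fit of the 22 libraries that also held the group. None of the 7 members tested passed an adjusted p under 0.05, beside 0.0768% of the 18236 genes tested, and none passed an unadjusted p under 0.05 by edgeR, beside 4.49% of all genes. DESeq2 and limma-voom also called 0. Within a group the sexes did not overlap in 3 cases. In Winnie Cma1 was 4.73 ± 0.195 CPM in the 3 males and 2.4 ± 0.871 CPM in the 4 females (SD), and Hdc was 0.88 to 10.4 CPM and 0.374 to 0.439 CPM, beside 14.5% of all genes lying higher in all males. In C57BL/6 Cma1 was 1.95 to 2.39 CPM in the 4 males and 0.181 to 1.92 CPM in the 4 females, beside 1.94% of all genes. In Winnie-Prolapse none of the 7 members stood apart, beside 3.42% of all genes lying higher in all males, and Cma1 was 2.64 ± 1.28 CPM in the 4 males and 3.09 ± 0.817 CPM in the 3 females. Whether the difference between sexes differed between groups was not tested.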

How the data were processed

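Distal colon segments were frozen and total RNA was extracted, poly(A) RNA was selected and stranded libraries were sequenced. Per the submitters' processing notes, STAR, featureCounts, limma and the mouse build GRCm38 were used. The authors deposited 1 table of raw read counts (46078 genes, 22 libraries), which was not normalized. The annotation release, the use of strand and the treatment of multiply matching reads were not given in the sources used here. The brain samples of the study were not analysed here.

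Groups and sexes were read from the labels, which give more Winnie colon samples than the study's text describes and a prolapse group that it does not name. The labels name no batch, so no within-batch value could be given. Replicate numbers follow the sample list and pair no animals. Libraries of a group differed in counts by more than sampling noise (lowest chi-square per degree of freedom 28.8), so none was counted as a duplicate. The p-values measure the spread between these libraries, each taken as 1 mouse.

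Counts were tested over the whole table with edgeR 4.0.16 in R 4.3.3 (TMM, filterByExpr, quasi-likelihood test, Benjamini-Hochberg adjustment), on the groups compared and without covariates. A gene was called at an adjusted p under 0.001 and at least 1.5-fold, the limits set by the study. Alternatives were DESeq2 1.42.0, limma-voom (limma 3.58.1), no TMM, no filter, a minimum of 10 counts in each library, a term for sex, 1 fit of all groups, an adjusted p under 0.05 and leaving out each library. On simulated counts for Winnie-Prolapse against C57BL/6, 69, 183 and 197 of 200 genes changed by 2-, 4- and 8-fold were called, with 0 false calls. The changed genes were drawn at random from all genes passing the filter, so these shares need not apply to members with low counts. CPM were scaled by library totals, and log2 CPM used a prior count of 2. The likeness rule took genes with a mean CPM of at least 1. TPM used exon lengths of GENCODE M21, known for 45143 genes, which held at least 99.9% of counts. Intervals of counting error are not given, and the floor of 3 counts covers counting error only.

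Named genes were all members, up to 3 called genes per list and comparison by smallest adjusted p, Kit, Ms4a2, Il1rl1 and Mcpt8, and the 3 genes most like each tested member. Members and lists were chosen with earlier results of these data known. The squamous list, the neutrophil sum without Ly6g and the Hdc means without 1 library were added after the data were seen, and Lsr, Abcg8, Ly6g, Tpsg1, Il9 and the library values named were picked out after their values were seen.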

Additional observations from a re-analysis of the deposited data

Results flagged for a closer look

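In 8 of the 27 sets formed by 9 genes and 3 groups, 1 library lay far from the others of its group by Dixon's gap criterion. For 2 of them, both of Tpsab1, 1 library had 2 counts and the rest 0, which meets the criterion whatever the count. For the others chance alone meets it in about 1 set in 20 if values are independent and normally distributed. That rate need not hold for CPM of low counts, and several of these genes vary together. Winnie replicate 3 accounted for 4 of the 8, with 1.12 CPM of Mcpt4 (next highest Winnie library 0.449), 0.964 CPM of Cpa3 (0.384), 1.12 CPM of Tpsb2 (0.459) and 0.0771 CPM of Tpsab1, which was 2 counts against 0 in the others. Winnie replicate 2 had 10.4 CPM of Hdc, against 1.16 in the next. Among controls, C57BL/6 replicate 7 had 0.181 CPM of Cma1 against 1.38 in the next lowest, replicate 6 had 1.42 CPM of Tpsb2 against 0.81 in the next highest, and replicate 5 had 0.0772 CPM of Tpsab1, which was 2 counts. The causes were not tested.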

How the results depend on the processing

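The number of mast cell genes called in Winnie against C57BL/6 was 0, and became 2 with DESeq2, 4 at an adjusted p under 0.05, and 0 to 2 when each library was left out in turn. In Winnie-Prolapse against C57BL/6 it was 4, and became 2 with limma-voom and 0 where at least 10 counts were required in every library, since no member passed that filter. It ranged from 3 to 4 when each library was left out, and was 6 with DESeq2, 5 with sex as a covariate and 3 with no filter. In Winnie-Prolapse against Winnie it was 0, became 2 at an adjusted p under 0.05, and was 0 throughout when libraries were left out. The log2 fold change of Mcpt1 between the Winnie groups was 0.37, and -0.00085 to 0.63 with each library left out, the sign changing only without Winnie-Prolapse replicate 7. Without a filter Mcpt4 in Winnie-Prolapse against C57BL/6 had an adjusted p of 0.00103. Of 372 alternative fold changes of single members, 354 kept their direction and their side of the limits, 13 lost their call, 4 gained one and 1 changed sign. The causes were not tested. No paired analysis was possible because the replicate numbers were given in sample order and the labels name no shared litter or day. Tpsab1, Fcer1a and, in controls, Mcpt4 and Cpa3 lay near the floor of 3 counts, so their low counts limit any statement on them.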
